A study of Mus musculus with 8 samples.

Results

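The 34 genes described here serve protein folding in the endoplasmic reticulum (ER) and the unfolded protein response. They were taken by symbol from the gene tables of 8 mouse livers, where all 34 symbols were found among 55450 genes. Enough reads for a test were present for 33 of them, and Asns, which encodes asparagine synthetase, was too low. The set was divided by role into 5 sensors and sensor-linked transcription factors, 12 genes placed in the ATF6 arm, 11 in the XBP1 arm and 6 in the ATF4 arm. The division is a working one, since the arms share targets.

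The ER is where hepatocytes fold the plasma proteins that they secrete, and unfolded protein there is sensed by 3 membrane proteins. ATF6 is cut in the Golgi to release a transcription factor that raises luminal chaperones, IRE1 (gene Ern1) splices the Xbp1 mRNA so that it encodes a factor for co-chaperones, ER-associated degradation and translocation, and PERK (gene Eif2ak3) phosphorylates eIF2 alpha, which lowers general translation and favours translation of ATF4. Much of this control lies in cleavage, splicing, phosphorylation and translation, which gene-level RNA values do not measure.

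The controls, labelled WT, were 4 mice homozygous for floxed Cebpa without Cre (Cre-), and the knockouts, labelled KO, were 4 mice whose floxed Cebpa was deleted in hepatocytes (Cre+). The deleted gene, Cebpa, codes for the hepatocyte transcription factor C/EBP alpha. All the mice were 10 weeks old and matched for body weight. All were fed liquid diets, 5 days without ethanol and 4 weeks with 5% (vol/vol) ethanol. The promoter that drives Cre is not given in the sources used here, and ethanol-free livers are not analysed here, so the values hold no response to ethanol.

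Whole liver RNA was measured, so fewer cells of a type and less RNA per cell cannot be told apart. The expected counts summed to between 21048350 and 28148744 per liver, and 1 count was worth 0.0341 to 0.0485 CPM (counts scaled to the library's size). Cebpa was at 263.6 to 320.3 CPM in the controls and 5.44 to 9.26 CPM in the knockouts (exact permutation p = 0.0286, two-sided, the smallest that 70 splits of 4 against 4 allow). Hepatocyte markers summed to 70384 to 95675 TPM (abundance per length of transcript, with 1 total for all livers) in the controls and 92960 to 100418 TPM in the knockouts. Alb made up most of these sums. Without it, the other 9 markers overlapped, at 26937 to 31926 TPM in the controls and 28776 to 33484 TPM in the knockouts. Of the 10 markers, 7 had log2 fold changes below 0, with a median of -0.13. Marker sums of other cells had higher means in the knockouts, for 10 cholangiocyte genes at 55.2 to 94.4 TPM against 153.6 to 455.3 TPM (30.8 to 33.7 against 39.5 to 46.5 TPM without Spp1, which carried most of the gap) and for 11 Kupffer cell and macrophage genes at 162.2 to 343.2 TPM against 277.7 to 482.1 TPM. The part of these cells in the results below was not tested. Control 2 stood apart in 22 acute phase genes, whose sum was 57296 TPM there, 13477 to 16605 TPM in the other controls and 10971 to 15477 TPM in the knockouts.

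Of the 33 genes tested, Atf6 and Creld2 fell in the knockouts and none rose (edgeR quasi-likelihood test, Benjamini-Hochberg adjusted p under 0.05). Over the 13303 genes tested, 1.21% were called lower and 0.849% higher at that threshold, 2.06% together. At an unadjusted edgeR p under 0.05, 18 of the 33 were lower and 0 higher, beside 8.90% lower and 9.61% higher among all genes tested. DESeq2 called 12 of the 33 lower and 0 higher at an adjusted p under 0.05, beside 3.37% and 2.80% of the same genes. The log2 fold change was below 0 for 29 of the 33, with a median of -0.32 against 0.00 over all genes tested. In 10 of the 33, every knockout liver was below every control in CPM, beside 5.92% of all genes, and none had every knockout above every control, beside 5.52% of all genes. In TPM this held for fewer of them, Atf6, Creld2, Pdia4, Sel1l and Derl3, and the share of all genes on that scale is not given here. Each edgeR p-value sets the difference between the groups against the spread between livers, which is estimated with help from all genes tested.

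The arms were not alike in these counts. In the ATF6 arm, 12 of 12 log2 fold changes were below 0, 9 at an unadjusted p under 0.05, with a median of -0.44. In the XBP1 arm, 10 of 11 were below 0, 8 at that level, with a median of -0.34. Of the 5 tested genes of the ATF4 arm, 0 reached it, and their median was -0.04. Among the 5 sensors only Atf6 reached it, and the median was -0.04. The medians lay closer together without knockout 4. They were then -0.36 in the ATF6 arm, -0.32 in the XBP1 arm, -0.18 in the ATF4 arm and -0.32 in the sensors. Whether the arms differ was not tested.

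**Figure D1:**
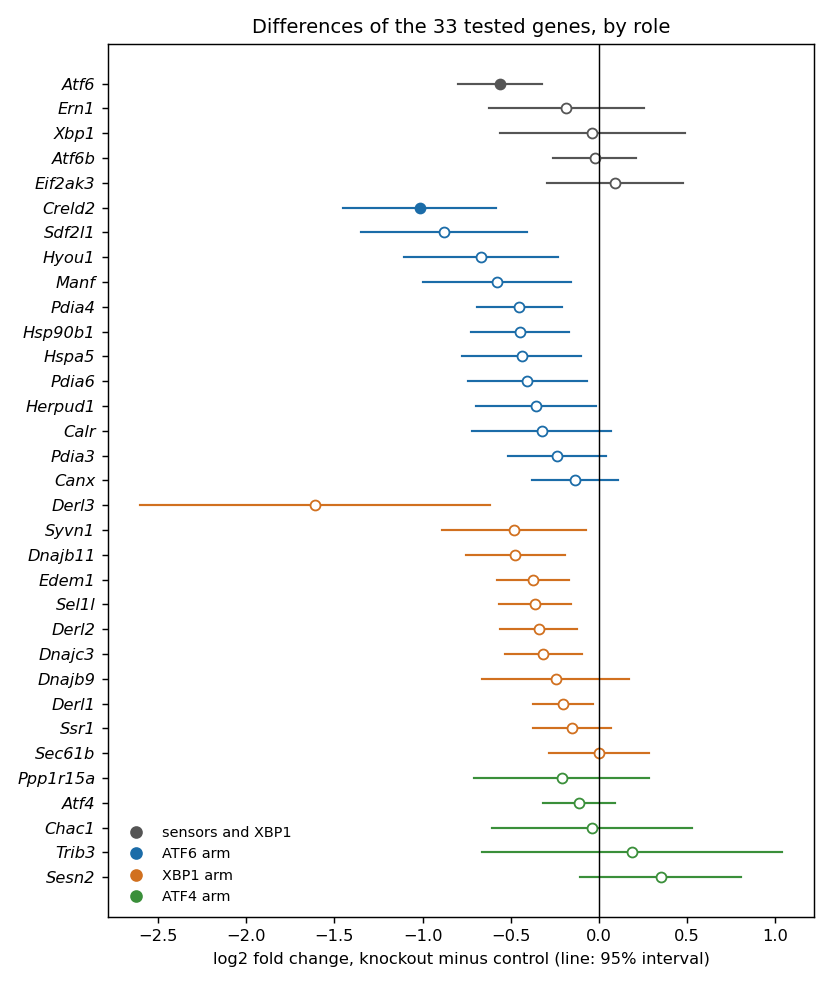
Log2 fold change of each of the 33 tested genes, knockout minus control (x axis), with its 95% interval as a line, coloured by role group; filled points have an adjusted p under 0.05. Only Atf6 and Creld2 are filled, the 12 genes of the ATF6 arm lie at or left of -0.14, and the ATF4 arm spreads around 0 from -0.21 to 0.35.

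The ER stress element (ERSE), to which ATF6 binds together with the CCAAT-binding factor NF-Y, reads CCAAT, any 9 bases, then CCACG. It was searched on both strands from 250 bases before to 50 bases after the start of each gene in RefSeq promoters (GRCm38.p6, the mm10 build), where 30 of the 34 genes were matched. The motif was found in 9 of the 30 (30.0%) and in 39 of all 32851 promoters (0.119%). The set is made of known targets of the response, many of them known through this element, so its high share in the set is a description and no finding of these livers. The 6 windows shown here hold the element in capitals, read 5′ to 3′ on the gene's strand, for the gene called lower in the ATF6 arm and for 2 chaperones and an isomerase of that arm, together with Derl3 and Syvn1 of the XBP1 arm.
Creld2, chr15:88819495-88819563, plus strand: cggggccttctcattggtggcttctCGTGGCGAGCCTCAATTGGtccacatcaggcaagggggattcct
Hspa5, chr2:34772020-34772048, plus strand: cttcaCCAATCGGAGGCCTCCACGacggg
Hsp90b1, chr10:86705613-86705681, minus strand: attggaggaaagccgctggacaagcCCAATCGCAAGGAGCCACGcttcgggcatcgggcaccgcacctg
Pdia6, chr12:17266466-17266534, plus strand: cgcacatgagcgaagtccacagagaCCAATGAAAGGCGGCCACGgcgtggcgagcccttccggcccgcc
Derl3, chr10:75893217-75893285, plus strand: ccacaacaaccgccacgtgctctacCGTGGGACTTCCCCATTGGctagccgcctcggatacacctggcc
Syvn1, chr19:6046507-6046575, plus strand: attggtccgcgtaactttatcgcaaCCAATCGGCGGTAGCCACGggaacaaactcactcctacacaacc

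In Creld2 and Derl3 the capitals open with CGTGG and close with ATTGG, so that the element stands on the opposite strand, whereas in the other windows it reads forward from CCAAT to CCACG. It lay 126 to 108 bases before the Creld2 start, 65 to 47 bases before that of Hspa5 and 44 to 26 bases before that of Syvn1. Hsp90b1 held it again 107 to 89 bases before its start. Calr, Canx and Dnajc3 held it as well. All 9 genes with the element had log2 fold changes below 0, with a median of -0.44, and 1, Creld2, was called lower. At an unadjusted edgeR p under 0.05, 7 of the 9 were lower, beside 8.90% of all genes tested. Over the whole ATF6 and XBP1 arms that count was 9 of 12 and 8 of 11. The 20 tested members whose matched promoters lacked it had a median of -0.20, with 7 at that level. Those 20 include all 5 tested genes of the ATF4 arm and the sensors Atf6b, Ern1, Eif2ak3 and Xbp1. All 9 genes with the element, and the 7 without it at that level, are of the ATF6 or XBP1 arm. Because the 20 also hold ATF4 arm genes and sensors, these medians do not compare genes with and without the element inside the same arms. The part of the element was not tested. Outside the set, 9 tested genes held the element, with a median of 0.00, 0 lower and 2 higher at that level.

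A shorter form, ERSE-II, reads ATTGG, any base, then CCACG, and was found in 12 promoters (0.0365%), those of Herpud1 and Dnajb11 among them. An amino acid response element bound by ATF4, searched as TGATGNAAN, was found in 1299 promoters (3.95%) and in 4 of the 30 matched members, Asns, Chac1, Trib3 and Herpud1. The windows of Herpud1 (ERSE-II) and Chac1 (the ATF4 element) are shown as examples of these elements. In the Chac1 window the element stands on the opposite strand. Herpud1 carries both elements, the ATF4 element outside the window shown.
Herpud1, chr8:94386352-94386412, plus strand: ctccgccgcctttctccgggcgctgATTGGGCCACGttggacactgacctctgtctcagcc
Chac1, chr2:119351023-119351081, plus strand: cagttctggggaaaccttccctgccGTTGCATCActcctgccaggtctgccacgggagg

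The plain XBP1-type element TGACGTGG was found in 222 promoters (0.676%) and in 0 of the matched members, which says only that these letters are not in these windows.

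Among the sensors, Atf6 fell in the knockouts. Its level was 15.2, 21.9, 18.5 and 16.1 TPM in controls 1 to 4 and 12.8, 12.4, 13.5 and 13.6 TPM in knockouts 1 to 4. The groups did not overlap, and the knockout livers lay close together at 13.1 ± 0.578 TPM (SD, n = 4), against 17.9 ± 3.01 TPM (SD, n = 4) in the controls. Atf6 was thus 1.48-fold lower (log2 fold change -0.56, SE 0.11, edgeR adjusted p = 0.0295). It spans bases 170704674 to 170867771 of chromosome 1 (mm10, minus strand). Its call was lost when control 3, knockout 1, knockout 2 or knockout 3 was left out, with an edgeR adjusted p of up to 0.0905, without knockout 2, and with the livers' title numbers as a block (edgeR adjusted p = 0.0805). It was also lost in all 3 limma fits of log2 TPM, with adjusted p-values of 0.108 to 0.196.

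The other sensors did not pass the test. Atf6b, the paralog of Atf6, was at 7.82 ± 0.948 TPM in the controls and 8.09 ± 0.482 TPM in the knockouts (SD, n = 4 each). The paralog thus showed no difference beyond the spread of the livers. Ern1, the IRE1 kinase and nuclease, was at 14.7, 18.5, 11.1 and 13.6 TPM in the controls and 11.8, 13.7, 11.2 and 18.6 TPM in the knockouts. Eif2ak3, the PERK kinase, was at 6.03, 7.43, 4.53 and 4.98 TPM in the controls and 6.15, 7.12, 7.07 and 5.36 TPM in the knockouts. The groups overlapped in each gene, and the 95% intervals of the log2 fold changes ran from -0.62 to 0.25 for Ern1 and from -0.29 to 0.48 for Eif2ak3.

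Xbp1, the most abundant of the sensor group, was at 115.4, 105.2, 83.0 and 89.2 TPM in the controls and 70.8, 101.2, 78.4 and 156.3 TPM in the knockouts. Knockout 4 held the highest level of the 8 livers and knockout 1 the lowest, so the knockouts spanned the controls. Its log2 fold change, -0.04, was within the error (SE 0.23, edgeR adjusted p = 0.954, 95% interval -0.56 to 0.49). The tables also give an abundance-weighted transcript length per gene, which was 2029, 2012, 2027 and 1991 bases for Xbp1 in the controls and 2076, 2051, 2054 and 2061 bases in the knockouts. The groups did not overlap in that length, which was the case for 1 of the 28 members whose length varied and, in the same direction, for 1.70% of the 11262 genes with a varying length. Spliced and unspliced Xbp1 cannot be told apart in gene tables.

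In the ATF6 arm, Creld2 fell in the knockouts. Creld2 encodes an EGF-like protein of the ER lumen that is induced by ER stress, and it spans bases 88819646 to 88826683 of chromosome 15 (mm10, plus strand). It was at 40.4, 48.8, 55.2 and 27.5 TPM in controls 1 to 4 and 21.5, 24.2, 26.3 and 19.2 TPM in knockouts 1 to 4. Every knockout was below every control, with control 4 and knockout 3 the closest livers, and the means were 43.0 ± 11.98 and 22.8 ± 3.12 TPM (SD, n = 4 each). The gene was 2.02-fold lower (log2 fold change -1.02, SE 0.19, edgeR adjusted p = 0.0337). The call was kept without control 4 and without knockout 3 and lost without any other liver, with an edgeR adjusted p of up to 0.103, without knockout 2. It was also lost in all 3 limma fits of log2 TPM, with adjusted p-values of 0.0750 to 0.158.

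The genes next in rank did not pass the test. Sdf2l1, a partner of the chaperone BiP and of Dnajb11, was at 15.1, 20.1, 15.4 and 9.51 TPM in the controls and 6.94, 11.4, 8.79 and 8.08 TPM in the knockouts. The groups overlapped in that control 4 was below knockout 2 (log2 fold change -0.88, SE 0.21, edgeR adjusted p = 0.0668). Pdia4, a protein disulfide isomerase, was at 80.6, 89.8, 83.8 and 71.8 TPM in the controls and 66.5, 65.6, 70.7 and 53.7 TPM in the knockouts. Its groups did not overlap, with control 4 and knockout 3 the closest livers (log2 fold change -0.45, SE 0.11, edgeR adjusted p = 0.0668).

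The most abundant member was Herpud1, a scaffold of the degradation complex in the ER membrane. It was at 426.6, 518.2, 459.8 and 366.0 TPM in the controls and 386.8, 354.8, 451.1 and 306.0 TPM in the knockouts, and the groups overlapped (log2 fold change -0.36, SE 0.15, edgeR adjusted p = 0.251). Hspa5, which encodes BiP, the main luminal chaperone, and which was chosen with the next 3 genes after their values were seen, was at 444.0, 408.7, 446.5 and 308.1 TPM in the controls and 320.1, 312.4, 372.9 and 258.2 TPM in the knockouts. Control 4 was below all the knockouts but knockout 4 (log2 fold change -0.44, SE 0.15, edgeR adjusted p = 0.169). Hsp90b1, the ER form of HSP90, had a log2 fold change of -0.45 (SE 0.12, edgeR adjusted p = 0.104). Hyou1, which exchanges nucleotide on BiP, had one of -0.67 (SE 0.19, edgeR adjusted p = 0.118). Manf, a secreted protein that binds BiP, had one of -0.58 (SE 0.19, edgeR adjusted p = 0.146), and it was called lower with the title numbers as a block (edgeR adjusted p = 0.0332).

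The remaining genes of the arm are the lectin chaperones Calr and Canx and the isomerases Pdia3 and Pdia6. Their log2 fold changes lay between -0.40 (Pdia6) and -0.14 (Canx), with edgeR adjusted p-values of 0.197 to 0.536. Summed over the 12 genes, the arm was at 2260, 2541, 2229 and 1741 TPM in the controls and 1859, 1855, 1997 and 1490 TPM in the knockouts. Control 4 was below 3 of the 4 knockouts in that sum, and controls 1 to 3 were above every knockout.

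**Figure D2:**
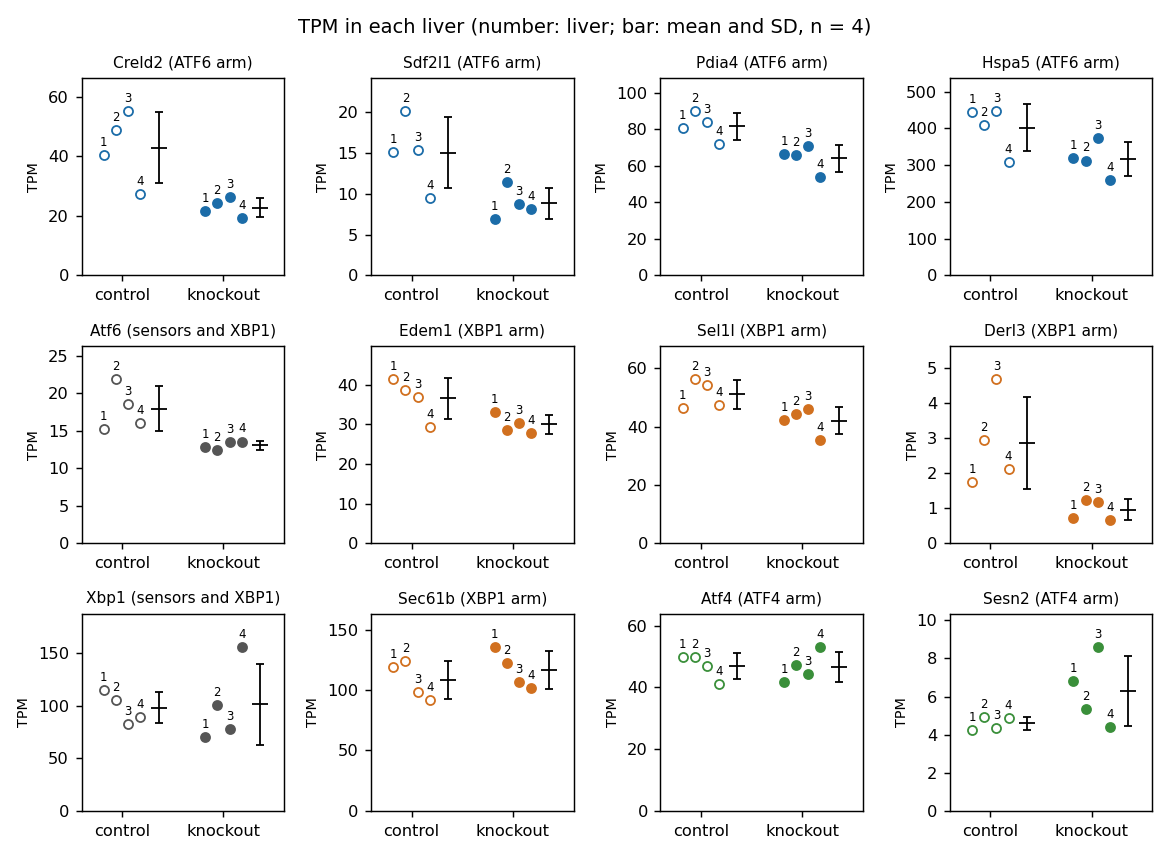
TPM (y axis, from 0) in each of the 4 control and 4 knockout livers for selected genes of the 4 role groups; numbers mark the liver and bars give the mean and SD. Atf6 and Creld2 show knockouts below all controls, Xbp1 shows knockout 4 at 156.3 TPM above every other liver, and Atf4 overlaps between the groups.

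In the XBP1 arm no gene passed the adjusted test. Edem1, which directs misfolded glycoproteins to degradation, was at 41.5, 38.7, 36.8 and 29.3 TPM in the controls and 33.2, 28.7, 30.3 and 27.8 TPM in the knockouts. Only control 4 lay within the knockouts' range in TPM, and the groups did not overlap in CPM (log2 fold change -0.37, SE 0.09, edgeR adjusted p = 0.0719). Sel1l, the adaptor of the ubiquitin ligase Syvn1, was at 46.4, 56.3, 54.2 and 47.4 TPM in the controls and 42.4, 44.5, 45.9 and 35.4 TPM in the knockouts. These groups did not overlap, with control 1 and knockout 3 nearly level (log2 fold change -0.36, SE 0.09, edgeR adjusted p = 0.0817). Dnajb11, a BiP co-chaperone that binds unfolded chains, was at 52.0, 64.6, 53.1 and 40.6 TPM in the controls and 44.2, 44.9, 40.8 and 37.2 TPM in the knockouts. Control 4 again lay within the knockouts' range in TPM, and the groups did not overlap in CPM (log2 fold change -0.47, SE 0.13, edgeR adjusted p = 0.0933).

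Sec61b, a subunit of the channel through which new chains enter the ER, was the only gene of the arm with a log2 fold change at or above 0. It was at 119.3, 123.6, 98.6 and 91.7 TPM in the controls and 135.7, 122.0, 106.3 and 101.4 TPM in the knockouts, and the groups overlapped (log2 fold change 0.00, SE 0.13, edgeR adjusted p = 0.996, 95% interval -0.28 to 0.29). Its sign turned under some other settings. Ssr1, a subunit of the translocon-associated complex, had a log2 fold change of -0.15 (SE 0.10, edgeR adjusted p = 0.448).

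Derl3, a derlin of the degradation channel that was chosen after its values were seen, showed the largest log2 difference of the set at low levels. It was at 1.74, 2.95, 4.69 and 2.11 TPM in the controls and 0.72, 1.24, 1.17 and 0.66 TPM in the knockouts. The groups did not overlap, but the gene missed the adjusted threshold (log2 fold change -1.61, SE 0.45, edgeR adjusted p = 0.102). Derl3 is also abundant in plasma cells, and 12 plasma and B cell markers summed to 63.9 to 91.7 TPM in the controls and 68.7 to 107.0 TPM in the knockouts. Sdc1 made up most of that sum, 9 of the 12 had a mean under 1 TPM, and the 11 without Sdc1 summed to 4.56 to 6.82 TPM in the controls and 6.44 to 37.6 TPM in the knockouts. The part of these cells in the Derl3 values was not tested. Its relatives Derl1 and Derl2, which were more abundant, had log2 fold changes of -0.20 and -0.34 (edgeR adjusted p = 0.196 and 0.112). The ligase Syvn1 had one of -0.48, and the BiP co-chaperones Dnajc3 and Dnajb9 of -0.31 and -0.25 (edgeR adjusted p = 0.203, 0.134 and 0.516).

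Levels of the ATF4 arm overlapped between the groups in every gene. Atf4, the transcription factor that names it, was at 49.9, 49.7, 47.0 and 41.1 TPM in the controls and 41.9, 47.4, 44.2 and 53.2 TPM in the knockouts. The means were 46.9 ± 4.12 and 46.7 ± 4.87 TPM (SD, n = 4 each), and the 95% interval of the log2 fold change, -0.32 to 0.09, held 0 (edgeR adjusted p = 0.537). Sesn2, which encodes the leucine-binding sestrin 2, was at 4.23, 4.95, 4.33 and 4.85 TPM in the controls and 6.82, 5.36, 8.61 and 4.39 TPM in the knockouts. Knockouts 1 to 3 were above all controls and knockout 4 was among them (log2 fold change 0.35, SE 0.20, edgeR adjusted p = 0.393).

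Ppp1r15a, the subunit that returns phosphatase to eIF2 alpha, was at 8.23, 14.2, 8.18 and 10.03 TPM in the controls and 10.1, 7.91, 10.9 and 13.7 TPM in the knockouts. Control 2 was the highest liver (log2 fold change -0.21, SE 0.22, edgeR adjusted p = 0.644). Chac1, which degrades glutathione, was at 5.06 ± 0.718 TPM in the controls and 5.34 ± 1.96 TPM in the knockouts (SD, n = 4 each), and Trib3, a pseudokinase, at 3.40 ± 1.28 and 4.14 ± 1.92 TPM. Asns, not tested, was at 0.03 to 0.65 TPM, from 1 to 12 counts per liver.

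Summed over all 34 genes, the set was at 3031, 3378, 2951 and 2382 TPM in controls 1 to 4 and 2548, 2560, 2667 and 2204 TPM in knockouts 1 to 4. Many of the genes shared the order of the livers. Within its group, control 2 held the highest CPM of 19 of the 33 tested genes and control 4 the lowest of 23, and knockout 3 held the highest of 17 and knockout 4 the lowest of 22. The median deviation of the 33 genes from their 8-liver means, on the log2 scale, was 0.21, 0.34, 0.10 and -0.08 in the controls and -0.14, -0.20, -0.06 and -0.34 in the knockouts. Control 4 thus lay beside knockout 3. For the ATF4 arm alone the same value was 0.03, 0.08, -0.10 and -0.07 in the controls and -0.14, -0.11, 0.01 and 0.12 in the knockouts, where knockout 4 was the highest liver rather than the lowest.

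**Figure D3:**
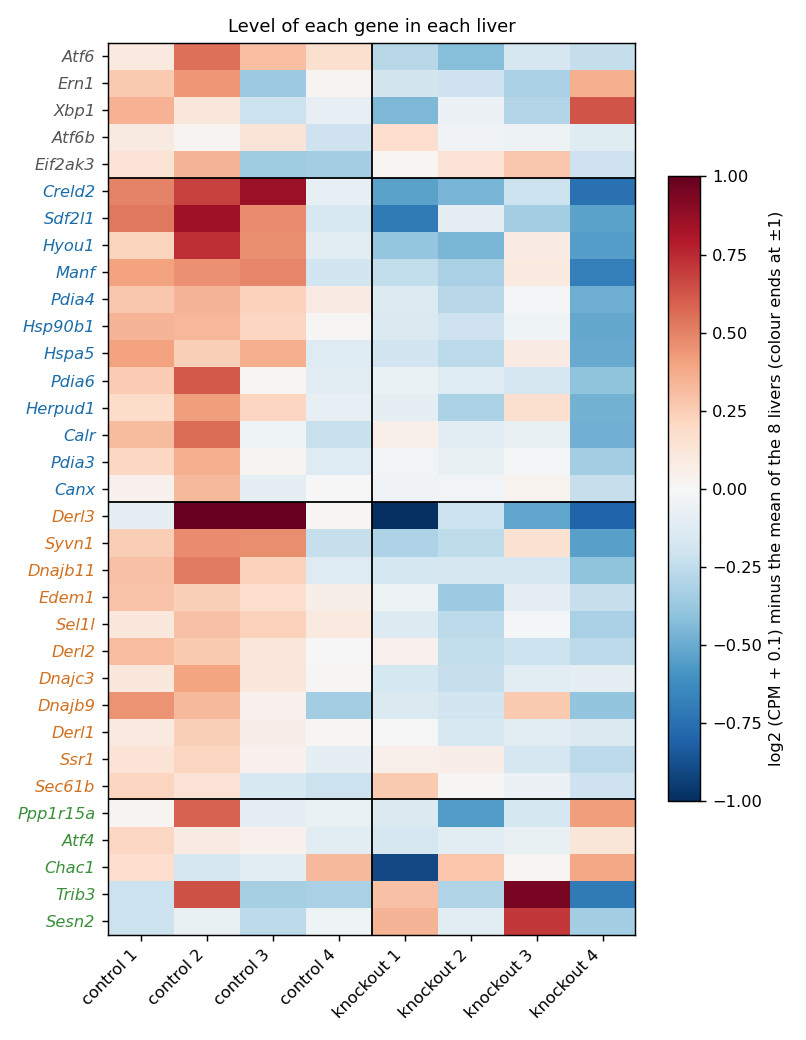
Level of each of the 33 tested genes (rows, coloured by role group) in each liver (columns), as log2 (CPM + 0.1) minus the mean of the 8 livers, with colour ending at ±1. Control 2 is the warmest column and knockout 4 the coolest over the ATF6 and XBP1 arms, where their median deviations in the ATF6 arm were 0.44 and -0.50.

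The livers at both ends, control 2 and knockout 4, were also left out. They are the ends by the median deviation of these same 33 genes (0.34 and -0.34). Leaving them out therefore narrows the difference between the groups by the choice itself. A lower count without them cannot show what the result rests on. The livers nearest the other group were not left out together. Without control 2 and knockout 4 together, 12 of the 33 genes were lower and 2 higher at an unadjusted edgeR p under 0.05, beside 10.5% and 10.3% of all genes in that fit. The ATF6 arm then had 5 of 12 genes lower at that level and a median log2 fold change of -0.33, and the XBP1 arm 6 of 11 and -0.28. The medians of the ATF4 arm and of the sensors were -0.18 and -0.24 in that fit. Atf6 was still called, and Creld2 was not (log2 fold change -0.88, edgeR adjusted p = 0.108). Leaving out 1 liver at a time gave 15 to 21 genes lower at that level, beside 6.76% to 11.1% of all genes in those fits.

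Genes of plasma and other secreted proteins, the cargo that passes through the ER, were followed beside the set. Of 54 genes of abundant secreted proteins, 13 were called lower in the knockouts and 0 higher (edgeR adjusted p under 0.05), beside 1.21% lower and 0.849% higher among all genes tested, and their median log2 fold change was -0.61. Many of the 54 are close paralogs, the major urinary protein genes (Mup) and Serpina1a to Serpina1e, among which RSEM divides shared reads. The count and the medians of this list therefore weigh these clusters many times. Their summed level was 235430 to 278108 TPM in the controls and 227348 to 238652 TPM in the knockouts. Their median log2 deviation was 0.24, 0.53, 0.07 and 0.25 in the controls and -0.35, -0.33, -0.23 and -0.14 in the knockouts, highest in control 2, as for the folding genes, but not lowest in knockout 4. The part of this secretory load, and of the acute phase genes that were high in control 2, in the folding genes' values was not tested.

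The wider ER and stress machinery was followed in 166 further genes on 8 lists, of which 162 were tested. None was called in either direction (edgeR adjusted p under 0.05). At an unadjusted p under 0.05, 15 (9.26%) were lower and 7 (4.32%) higher, near the background of all genes for the lower side. The median log2 fold change was -0.06, and 111 of the 162 were below 0, beside 6560 of all 13303 genes tested. Below 0 were 17 of 21 translocation, 14 of 17 glycosylation, 18 of 23 oxidative folding and 18 of 21 other degradation genes. At that p, 17.6% of the glycosylation and 17.4% of the oxidative folding genes were lower. The share was 4.76% in each of the translocation and other degradation lists, beside 8.90% of all genes. DESeq2 called 3 of them lower, Ero1lb, Serp1 and Aars, and 2 higher, Cebpb and Stc2.

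Genes for the entry and processing of new chains had a median log2 fold change of -0.12 in both lists, translocation and glycosylation, and none was called. Of 21 translocation and signal peptidase genes, 1 was lower at an unadjusted p under 0.05, the signal peptidase subunit Spcs2 (log2 fold change -0.27, edgeR adjusted p = 0.149), and the smallest p on the higher side was that of Srp54a of the signal recognition particle (0.24, edgeR adjusted p = 0.400). Of 17 glycosylation and calnexin cycle genes, 3 were lower and 1 higher, led by the cargo receptor Lman1 (-0.26, edgeR adjusted p = 0.174) and by the glucosyltransferase paralog Uggt2 (0.73, edgeR adjusted p = 0.216).

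Of 23 oxidative folding genes, 4 were lower and 0 higher at that level. The lead was Ero1lb, an oxidase that recharges disulfide isomerases, at 20.3, 36.9, 23.7 and 19.5 TPM in the controls and 15.1, 14.4, 17.3 and 14.5 TPM in the knockouts. Its groups did not overlap, and it missed the threshold narrowly (log2 fold change -0.84, SE 0.18, edgeR adjusted p = 0.0530). The smallest p on the higher side was that of the prolyl isomerase Fkbp7 (0.30, edgeR adjusted p = 0.469). The most abundant isomerase, P4hb, chosen after its values were seen, was at 735.5 ± 99.1 TPM in the controls and 801.3 ± 89.0 TPM in the knockouts (SD, n = 4 each), with a 95% interval of the log2 fold change from -0.32 to 0.23.

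Of 21 other degradation genes, 1 was lower and 0 higher at that level, with a median log2 fold change of -0.10, and the smallest p on the higher side was that of the mannosidase Man1b1 (log2 fold change 0.09, edgeR adjusted p = 0.647). Of 22 tested further regulators of the response, 2 were lower, led by Serp1, a protein of the translocon (-0.28, edgeR adjusted p = 0.134), and the smallest p on the higher side was that of Ddrgk1 (0.14, edgeR adjusted p = 0.323).

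Of 14 genes of eIF2, its exchange factor and its kinases, 2 were lower, led by the eIF2 subunit Eif2s2 (log2 fold change -0.19, edgeR adjusted p = 0.194), and the smallest p on the higher side was that of the exchange factor subunit Eif2b3 (0.24, edgeR adjusted p = 0.518). Of 24 tested other ATF4 targets and partners, 6 were higher and 1, the amino acid transporter subunit Slc3a2, lower at an unadjusted p under 0.05 (-0.24, edgeR adjusted p = 0.212). These are 25% higher and 4.17% lower, beside 9.61% and 8.90% of all genes tested, and 12 of the 24 log2 fold changes were below 0. The smallest p on the higher side was that of Stc2, stanniocalcin 2, at only 0.04 to 0.12 TPM in the controls and 0.19 to 0.27 TPM in the knockouts (1.69, edgeR adjusted p = 0.0689). Ddit3, which encodes the stress factor CHOP and was picked with its values known, was at 7.35 ± 1.85 TPM in the controls and 6.71 ± 1.64 TPM in the knockouts (SD, n = 4 each; -0.27, edgeR adjusted p = 0.630). Of 20 cytosolic tRNA synthetases, 1 was lower, Aars for alanine (-0.37, edgeR adjusted p = 0.106), and the smallest p on the higher side was that of Gars for glycine (0.19, edgeR adjusted p = 0.272).

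**Figure D4:**
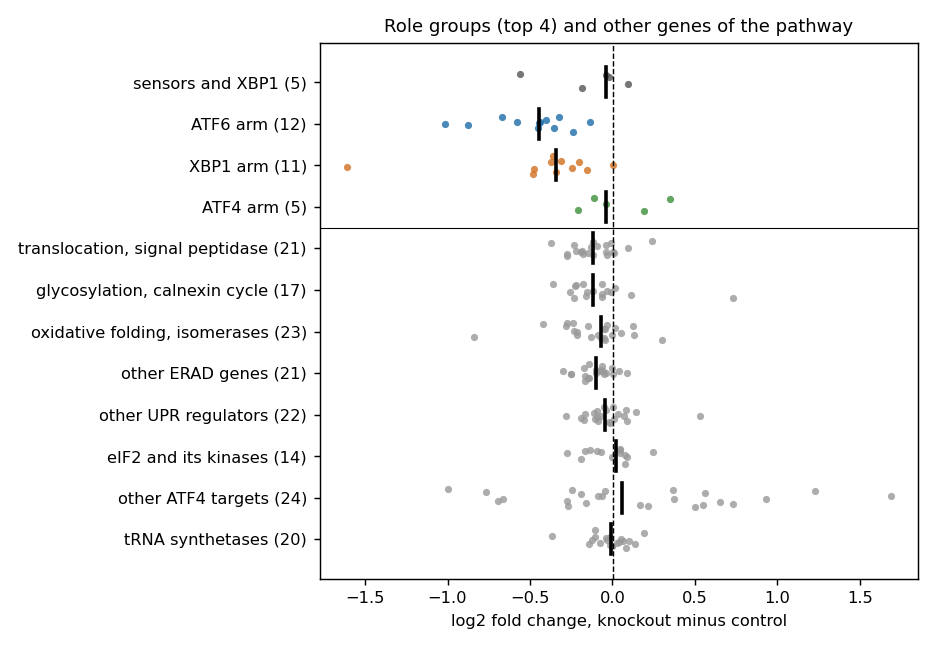
Log2 fold change, knockout minus control (x axis), of each tested gene in the 4 role groups and the 8 further lists, with the number tested in brackets, a black bar at each list's median and a dashed line at the median of all genes tested. The medians of the ATF6 and XBP1 arms, -0.44 and -0.34, lie left of those of the further lists, which run from -0.12 to 0.06.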

How the data were processed

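Polyadenylated liver RNA was prepared with a stranded TruSeq mRNA kit, per the labels' protocols. The authors deposited, per the file headers, RSEM expected counts (estimated counts that divide shared reads and need not be whole), TPM values and transcript lengths per gene. The submitters' processing notes name STAR 2.5.1 and RSEM 1.2.22, as well as Trimmomatic 0.36, Picard 1.84 and DESeq2, and the build mm10. No annotation release or strand setting of the counting is given in the sources used here. Reads of members that overlap a gene on the other strand, Hsp90b1, Herpud1, Manf, Dnajb11 and Syvn1 among them, could therefore include reads of that gene. All 55450 gene identifiers matched GENCODE M21, which supplied coordinates. Ddit3 has a second row with 0 counts, which was not used.

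Titles gave the genotype groups, 4 livers against 4, and no pair of livers of the same group agreed within sampling noise. Correlations between same-numbered livers of their deviations from the group mean were 0.2075, 0.00904, -0.0243 and -0.0672, and the livers were treated as unpaired. Expected counts were rounded and fitted with edgeR 4.0.16 in R 4.3.3 over all genes that passed filterByExpr (minimum count 10, minimum total 15), with TMM scaling and the robust quasi-likelihood test, two-sided. The p-values of the 13303 genes tested were adjusted by Benjamini-Hochberg and read at 0.05. CPM values use TMM-scaled library sizes. Deviations per liver used log2 (CPM + 0.1). Levels are given in the authors' TPM, which is scaled to length, and folds in edgeR's log2 scale from counts. The steps were run on simulated counts in which genes vary independently of one another. The outcome is not reported here and does not bear on genes that share the order of the livers.

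The members, the gene lists and the tests were chosen with earlier results of these data known. Values in every liver are given for members with an adjusted p under 0.05, for the 3 smallest p-values, the largest mean TPM and the best gene of the opposite direction in each role group. Other members are given by means, folds or ranges. Of each further list the genes with the smallest p in each direction are named, most by fold and p only. Hspa5, Hsp90b1, Hyou1, Manf, Derl3, P4hb and Ddit3 were singled out after their values were seen. Alternatives were RLE factors, library size alone, other filters, no robust estimation, a replicate block, DESeq2 1.42.0, limma 3.58.1 (voom, and trend on log2 TPM with a pseudocount of 1 or 0.1), and livers left out. Promoters came from RefSeq (GRCm38.p6). Protein sequences were not analysed here, and 1 gene that the naming rule gives is not reported here. Figures used matplotlib 3.10.9.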

Additional observations from a re-analysis of the deposited data

Results flagged for a closer look

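Each of the 33 tested genes was checked within each group of 4 livers for a single liver far from the other 3, which made 66 checks, and 5 livers' values stood apart; chance alone marks about 1 in 20. In control 4, Manf was at 44.7 CPM, with the other controls at 67.6 to 71.9 CPM. In knockout 4, Dnajb11 was at 46.6 CPM, with the other knockouts at 54.5 to 54.8 CPM. In knockout 1, Derl2 was at 68.1 CPM, with the other knockouts at 54.9 to 56.9 CPM. In control 2, Trib3 was at 7.67 CPM, with the other controls at 3.88 to 4.20 CPM, and Ppp1r15a was at 19.9 CPM, with the other controls at 12.4 to 13.4 CPM.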

How the results depend on the processing

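Across 20 alternatives Atf6 stayed lower in all and was called in 12, and Creld2 stayed lower in all and was called in 10. The number of members called lower, 2 by edgeR, was 5 without the filter, beside 198 genes lower and 156 higher of 23236 in that fit. It was 12 by DESeq2 (beside 3.37% of all genes lower and 2.80% higher) and 0 in each of the 3 limma fits of TPM. It was 1 without control 2 and knockout 4. With 1 liver left out it was 0 to 4 (0 without control 3, knockout 1 or knockout 2, and 4 without control 4). With the replicate block it was 2, Creld2 and Manf, and Atf6 was not called; same-numbered livers share only a number. At an unadjusted p under 0.05, the 18 lower members became 11 in the unfiltered TPM fit, beside 2.64% of all genes lower and 10.8% higher there. The 0 higher became 1 with library size alone, beside 14.1% of all genes higher and 5.31% lower. The higher members were 2 without control 2 and knockout 4 (beside 10.3% of all genes) and 0 to 1 with 1 liver left out (beside 6.81% to 10.9%). Of the further genes, DESeq2 called 3 lower and 2 higher, 2 were called lower without control 2 and knockout 4 (Ero1lb among them), and 0 to 1 in either direction with 1 liver left out. Scaling moved the median of all genes, from 0.00 to 0.07 with library size alone, 0.09 on log2 (TPM + 1) and 0.11 on log2 (TPM + 0.1). On the last scale the medians of the ATF6 and XBP1 arms relative to all genes were -0.45 and -0.30. Some genes that were not called turned sign. With library size alone, Atf6b was at 0.0443, Xbp1 at 0.0424 and Chac1 at 0.04. Sec61b was at -0.0038 without the filter and -0.0074 by DESeq2. On log2 (TPM + 1), with and without the filter, Atf6b was at 0.0472, Canx 0.0068, Ssr1 0.056, Chac1 0.0113 and Ppp1r15a 0.0709, and on log2 (TPM + 0.1) Atf6b was at 0.0531, Canx 0.0069, Ssr1 0.059 and Ppp1r15a 0.0778. Without control 2 and knockout 4, Atf6b was at 0.0174 and Canx 0.0046. With 1 liver left out, Atf6b ran from -0.0983 to 0.0152, Chac1 from -0.1933 to 0.161, Eif2ak3 from -0.0114 to 0.2353, Sec61b from -0.1016 to 0.0701, Trib3 from -0.1967 to 0.4805 and Xbp1 from -0.3178 to 0.0809. With promoters ending at the start site, ERSE-II was in 1 member and ERSE still in 9. The cause of these changes was not tested. With 4 livers a group, small differences could be missed in abundant genes as well as in low ones. The 95% interval of the log2 fold change ran from -0.66 to 1.04 for Trib3, a low gene. For the abundant Herpud1, which was not called, it ran from -0.70 to -0.02.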
